A study of Arabidopsis thaliana with 8 samples.

Results

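The CaCl2 response of the laboratory lines was measured in whole Arabidopsis thaliana plants on 4 of the 8 Affymetrix ATH1 arrays of the study, those titled LabCalcicole and LabCalcifuge. A calcicole is a plant of lime-rich soil and a calcifuge is a plant that avoids it, and both laboratory lines are known here only by these names. Each line was grown at 1 and at 12.5 mM CaCl2 and each dose of a line was hybridised to 1 array, so the response is the difference between 12.5 and 1 mM within a line, seen in 2 lines. The other 4 arrays hold 2 wild ecotypes at the same doses, here the high-pH wild line and the low-pH wild line after the soil they came from, and they are used below only for comparison. All plants, controls included, were grown in a growth room on sterile sand fed with Long Ashton nutrient solution. Labels give no accession or mutation for any line, no plant age, no length of CaCl2 supply and no number of plants behind an array.

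Calcium is both a nutrient and a second messenger in plants. It cross-links pectin in the cell wall, is stored in the vacuole, and is kept very low in the cytosol, where short rises are read by calmodulin-like proteins and calcium-dependent kinases. A rich calcium supply is known to alter the uptake of other ions, and on lime soils plants often meet iron and phosphate shortage as well. Chloride is added with calcium when CaCl2 is supplied, so a CaCl2 dose is not a calcium dose alone.

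Levels below are the authors' signal intensities, written as the signal at 1 mM then the signal at 12.5 mM. Differences were taken on a log2 scale with a pseudocount of 2.51 added to every signal, which understates the change of dim probe sets. Where a pair of differences is given, the calcicole comes before the calcifuge, and the high-pH before the low-pH wild line. The median signal was between 42.4 and 47.8 on the 8 arrays. The label is whole plant, and markers of root and of green tissue were looked up. Of 10 listed root markers 3 were named on the array, and only PYK10 was bright enough to be tested. The root side therefore rests on 1 gene. RCA, LHCB4.1, PSAE-1 and PRK were the tested ones of 7 listed green shoot markers, while no listed flower or seed marker could be looked up by name. The ratio of the 3' to the 5' actin control probe sets was 10.4 to 16.9 on the lab arrays and 1.53 to 2.67 on the wild arrays, and it was alike at both doses of each lab line. The 25S ribosomal RNA control probe set read 100.4 then 90.4 for the lab calcicole, 126 then 19.8 for the lab calcifuge, and 89.0 to 104 on the wild arrays, so the lab calcifuge array at 12.5 mM stood apart in this control.

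The first question was how many probe sets responded to CaCl2 in the same direction in both lab lines. In all, 106 of 13647 tested probe sets (0.777%) were at least 2-fold higher at 12.5 mM in each line, and 89 (0.652%) were at least 2-fold lower in each. Opposite changes of that size were seen for 25 probe sets (0.183%) higher in the calcicole and lower in the calcifuge, and for 14 (0.103%) the other way. Each line on its own had more changes of this size, with 447 higher (3.28%) and 567 lower (4.15%) in the calcicole and 435 higher (3.19%) and 416 lower (3.05%) in the calcifuge. Changes of that size either way made up 4.09% in the high-pH and 6.4% in the low-pH wild line. Whatever the size, 30.6% of probe sets were higher in both lab lines, 26.1% lower in both and 43.3% opposite. Thus most large changes of a line were not matched at that size in the other line. Without the filter on dim probe sets, opposite changes made up a larger part of them, with 299 higher in both, 267 lower in both and 292 opposite. Across the 13647 probe sets, which are not independent and share arrays, the changes of both lines correlated at 0.26 (Pearson) and 0.23 (Spearman).

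In the limma fit, which takes its spread from the disagreement between lines, no probe set passed an adjusted p of 0.05 (0 of 13647, 0%). At an unadjusted p under 0.05 there were 1523 probe sets (11.2%), 750 of them higher (5.5%) and 773 lower (5.66%), where 682 would be expected by chance. A fit to the 4 lab arrays alone called 8 probe sets (0.0586%), with 1476 at an unadjusted p under 0.05, and AT1G17830 and PDF1.2b are the named genes among them. With a lab line left out the fit describes the remaining lab line alone, against the spread of the wild lines, and called 89 probe sets without the calcicole and 78 without the calcifuge. None of the differences below passed the threshold in the fit to all 8 arrays unless this is stated. The gene lists below were set with earlier results of these data known, so their counts are descriptions. In the wild lines 0 passed and 7.14% had an unadjusted p under 0.05. Nothing in the labels says that arrays came from separate sowings, so these p-values measure only the spread between lines and arrays. In RNA of whole plants, fewer cells of a type and less RNA per cell cannot be told apart.

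**Figure D1:**
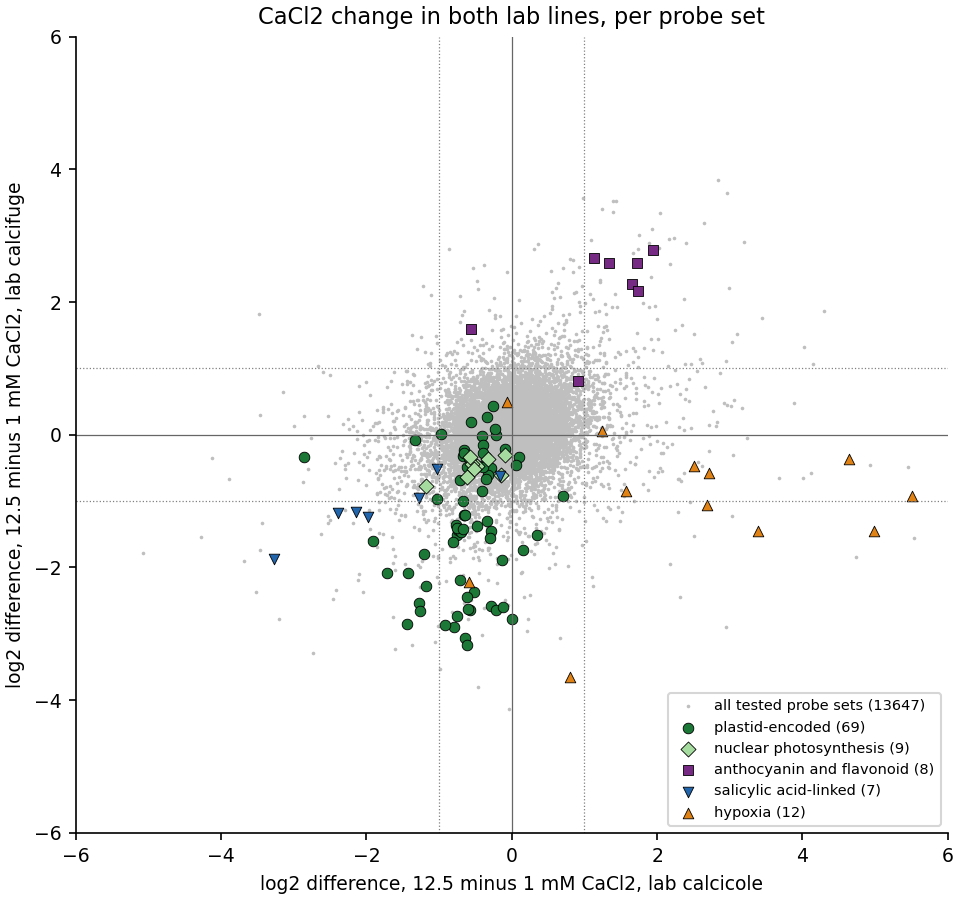
Each point is a probe set, with its log2 difference between 12.5 and 1 mM CaCl2 in the lab calcicole (x axis) and in the lab calcifuge (y axis); dotted lines mark 2-fold, and coloured symbols are listed genes. Plastid-encoded genes lie below 0 in both lines for 57 of 69, anthocyanin genes lie in the upper right for 7 of 8, and most hypoxia genes lie to the right of and below 0.

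In the scatter of both lines, several of the points farthest to the upper right are probe sets with no gene name here. The named genes higher in both lines included genes of starch synthesis, genes of anthocyanin synthesis and a vacuolar protease. Among named genes, ranked by the smaller of both line changes, AT1G17830 had the largest change common to both lines. Its signal went from 12.2 to 132 in the calcicole and from 4.17 to 47.7 in the calcifuge, and the lab difference was 3.05 ± 0.48 (SE, 2 lines; limma adjusted p 0.162). Both 12.5 mM arrays were above both 1 mM arrays. In the 4-array fit its adjusted p was 0.0452, and in the wild lines it changed by -0.14 (high pH) and 2.03 (low pH).

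APL3 and APL4 encode large subunits of ADP-glucose pyrophosphorylase, the enzyme that commits glucose to starch. The APL3 signal was 191 then 877 in the calcicole and 72.6 then 445 in the calcifuge, a lab difference of 2.38 ± 0.41 (limma adjusted p 0.18). The APL4 signal was 52.9 then 600 in the calcicole and 20.8 then 76.1 in the calcifuge, a difference of 2.60 ± 0.47 (limma adjusted p 0.186). For APL3 the 12.5 mM arrays lay above both 1 mM arrays, and so they did for APL4. After both genes had been seen among the named increases, a list of 28 starch genes was written, and 5 of them could be tested. All 5 were higher in both lab lines, against 30.6% of all probe sets, with a median of 1.18 against 0.02 for all tested probe sets. For 5 of 5 the unadjusted p was under 0.05, against 5.5% of all probe sets in that direction. As the list was prompted by these members, its count is a description.

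The other members of the starch list were SBE2.2, PWD and DPE1. SBE2.2, a starch branching enzyme, had signals of 277 then 529 in the calcicole and 173 then 470 in the calcifuge (1.18 ± 0.28). PWD, which phosphorylates starch for its breakdown, changed by 0.80 in the calcicole and 1.03 in the calcifuge. DPE1, which processes maltotriose during starch breakdown, was 1.82-fold higher (0.86 ± 0.23). The 5 tested genes therefore include both synthesis and breakdown enzymes. In the low-pH wild line the same 5 genes changed by 0.69 to 1.77, and in the high-pH wild line by -0.07 to 0.47.

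Anthocyanins are red to purple flavonoid pigments that are built up from phenylalanine and finished by adding sugars and acyl groups. In the list of 25 anthocyanin and flavonoid genes 8 were tested, 7 of which were higher in both lab lines and 6 at least 2-fold in both. The shares over all probe sets were 30.6% and 0.777%. The list median was 1.95 in the lab lines against 0.02 over all probe sets, with 1.49 in the calcicole and 2.43 in the calcifuge. For 7 of the 8 the unadjusted p was under 0.05, against 5.5% of all probe sets, and none passed the adjusted threshold. As the list was set with earlier results of these data known, its counts are a description. The list mean was 1.23 in the calcicole alone and 2.18 in the calcifuge alone.

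DFR, the reductase that leads into the anthocyanin branch, read 212 then 671 in the calcicole and 484 then 2351 in the calcifuge (1.96 ± 0.24, limma adjusted p 0.11). The anthocyanin glucosyltransferase AT4G14090 read 157 then 527 in the calcicole and 110 then 504 in the calcifuge (1.95 ± 0.23). UF3GT, a glycosyltransferase acting on anthocyanins, read 113 then 441 in the calcicole and 120 then 847 in the calcifuge (2.37 ± 0.27). For each of these 3 genes both 12.5 mM arrays were above both 1 mM arrays, and for DFR the calcifuge was the higher line at each dose. The malonyltransferase AT5MAT read 44.0 then 150 in the calcicole and 46.5 then 293 in the calcifuge (2.16 ± 0.28). UGT78D2, a flavonoid 3-O-glucosyltransferase, read 123 then 313 in the calcicole and 135 then 824 in the calcifuge (1.96 ± 0.32).

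The chalcone isomerase-like gene CHIL read 108 then 239 in the calcicole and 152 then 974 in the calcifuge. For these 6 genes the change was larger in the calcifuge (calcicole minus calcifuge -0.44 for AT4G14090 to -1.52 for CHIL), and no such difference passed the test between lines. AT1G06000, a flavonol 7-O-rhamnosyltransferase, changed by 0.92 and 0.80. UGT78D1, a flavonol 3-O-rhamnosyltransferase, was the exception, at 122 then 81.7 in the calcicole and 57.4 then 178 in the calcifuge. Its change differed between the lines by -2.15 ± 0.51 (calcicole minus calcifuge, limma adjusted p 0.241).

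**Figure D2:**
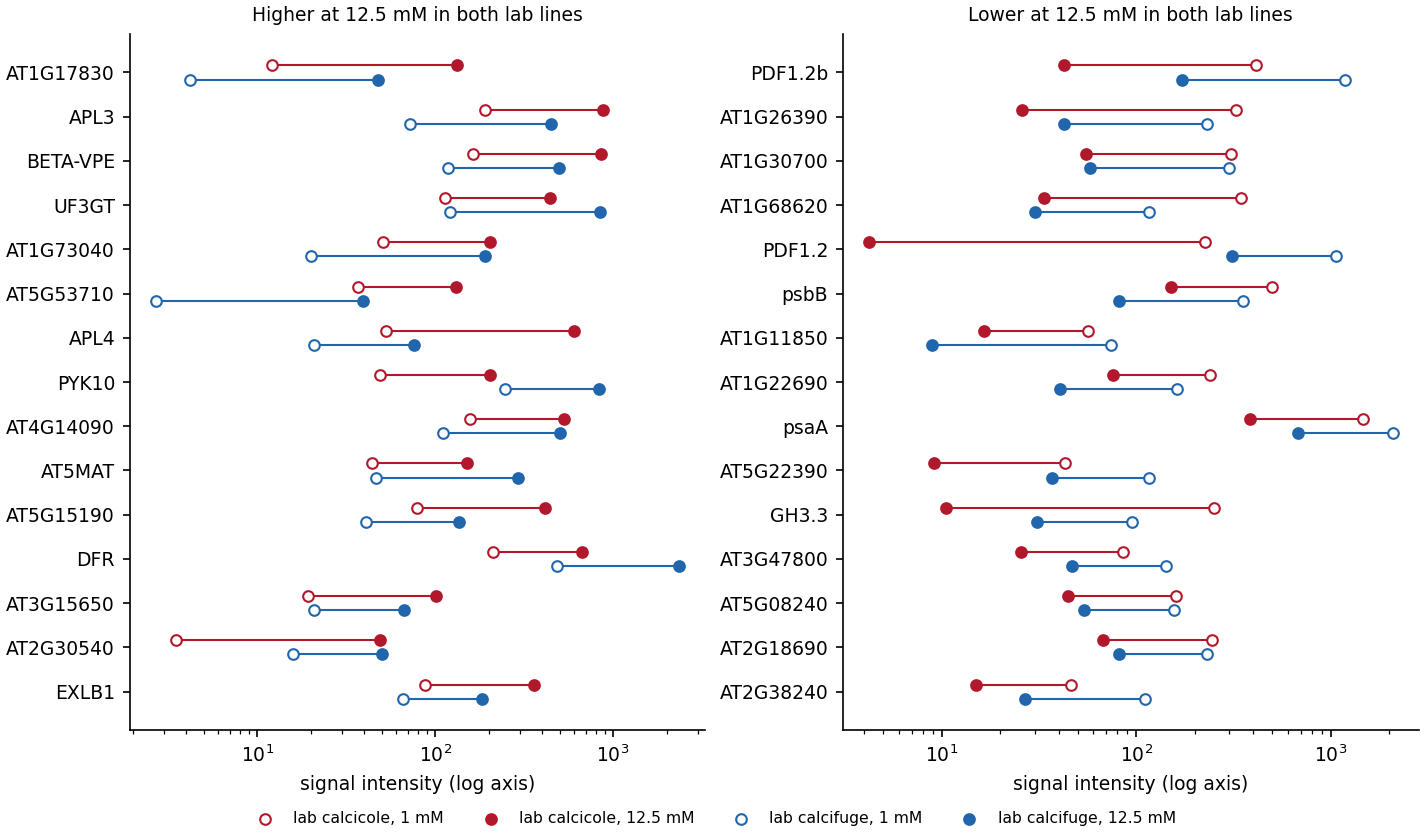
Signal intensity (log axis) on the 4 lab arrays of the 15 genes with the largest shared change in each direction; open circles are 1 mM and filled circles 12.5 mM CaCl2, red is the lab calcicole and blue the lab calcifuge, with 1 array per circle. Genes were chosen for the same direction in both lab lines, so lines of the same gene run the same way. AT1G17830 at the top left goes from 12.2 to 132 and from 4.17 to 47.7.

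The plot of signals shows that several leading genes were dim on 1 array, which makes the size of their change depend on the pseudocount. Other named genes that were higher in both lines included a vacuolar protease, redox proteins and wall-related proteins. BETA-VPE, a vacuolar processing enzyme that matures vacuolar proteins, read 164 then 856 in the calcicole and 118 then 495 in the calcifuge (4.61-fold higher, limma adjusted p 0.139). AT1G73040, a jacalin-type lectin, changed by 1.93 in the calcicole and 3.10 in the calcifuge (2.52 ± 0.33). EXLB1, an expansin-like gene, read 88.0 then 361 in the calcicole and 65.5 then 183 in the calcifuge (1.73 ± 0.24). These 3 genes had both 12.5 mM arrays above both 1 mM arrays.

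Redox genes among the 25 named increases were the glutaredoxin AT2G30540 and the methionine sulfoxide reductase MSRB5. AT2G30540 changed by 3.09 in the calcicole, from a dim 3.52, and by 1.52 in the calcifuge. MSRB5 read 93.6 then 366 in the calcicole and 255 then 623 in the calcifuge (1.61 ± 0.33), so its calcifuge array at 1 mM was brighter than the calcicole array at 1 mM by more than 2-fold. The glucosyltransferase UGT85A5 changed by 1.23 and 1.46, TBL26, of a family of wall polymer acetyltransferases, by 1.58 and 1.27, and the strictosidine synthase-like AT3G57010 by 4.03, from 3.18, and 1.32. The remaining named increases were AT5G53710, AT5G15190, AT3G15650, AT1G01250, AT2G21820, AT2G16990, AT4G32920 and AT5G06190, with lab differences of 1.25 for AT5G06190 to 2.38 for AT5G53710. AT5G53710 was at 2.69 and AT4G32920 at 2.44 in the calcifuge at 1 mM, near or under the pseudocount.

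PYK10, the abundant beta-glucosidase of root endoplasmic reticulum bodies, was also higher in both lines. Its signal was 49.2 then 203 in the calcicole and 247 then 830 in the calcifuge, a difference of 1.87 ± 0.21 (limma adjusted p 0.11). The calcifuge read higher than the calcicole at each dose, so the doses overlap across lines. In the wild lines it changed by 0.44 and 0.53. PYK10 is the only tested root marker. The 4 tested green shoot markers were lower in both lab lines, against 26.1% of all probe sets, with a median of -0.43. With quantile normalization their median was -0.20 and 3 of 4 were lower in both. This 1 root marker and the shoot markers thus moved in opposite directions, and the part of tissue shares in these results was not tested.

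Genes of the cold, drought and abscisic acid list were mostly higher. Of its 27 genes only 5 were tested. Of these 5, 4 were higher in both lab lines, with a median of 0.84 against 0.02 over all probe sets. An unadjusted p under 0.05 was found for 4. Over all probe sets 30.6% were higher in both lab lines and 5.5% were higher with such a p. LTI30, a dehydrin, read 472 then 2252 in the calcicole and 309 then 609 in the calcifuge (1.61 ± 0.49). HIS1-3, a linker histone induced by drought, read 647 then 1130 in the calcicole and 49.4 then 322 in the calcifuge (1.72 ± 0.42). The calcicole read higher than the calcifuge at both doses for these genes, and the larger change was in the calcicole for LTI30 and in the calcifuge for HIS1-3. COR15A, a chloroplast cold-regulated protein, changed by 1.26 and 0.42, the dehydrin COR47 by 0.81 and 0.67, and COR15B by 0.12 and -0.53. COR47 changed by -0.69 and -0.30 in the high-pH and low-pH wild lines.

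For the iron-deficiency list only 3 of 26 genes were tested. AT1G47400, which encodes an iron-deficiency signal peptide, read 35.7 then 670 in the calcicole and 39.0 then 84.1 in the calcifuge, changes of 4.14 and 1.06. The shared direction thus came with a much larger change in the calcicole, a difference of 3.08 ± 0.58 (limma adjusted p 0.149). PYE, a transcription factor of iron shortage, changed by 0.63 and 0.41. AT3G13610, which makes the iron-mobilising coumarin scopoletin, changed by 1.47 in the calcicole and -0.04 in the calcifuge. The methionine gamma-lyase MGL changed by 1.58 and 0.93, and the glucosinolate gene BCAT4 by -1.12 and 0.52.

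**Figure D3:**
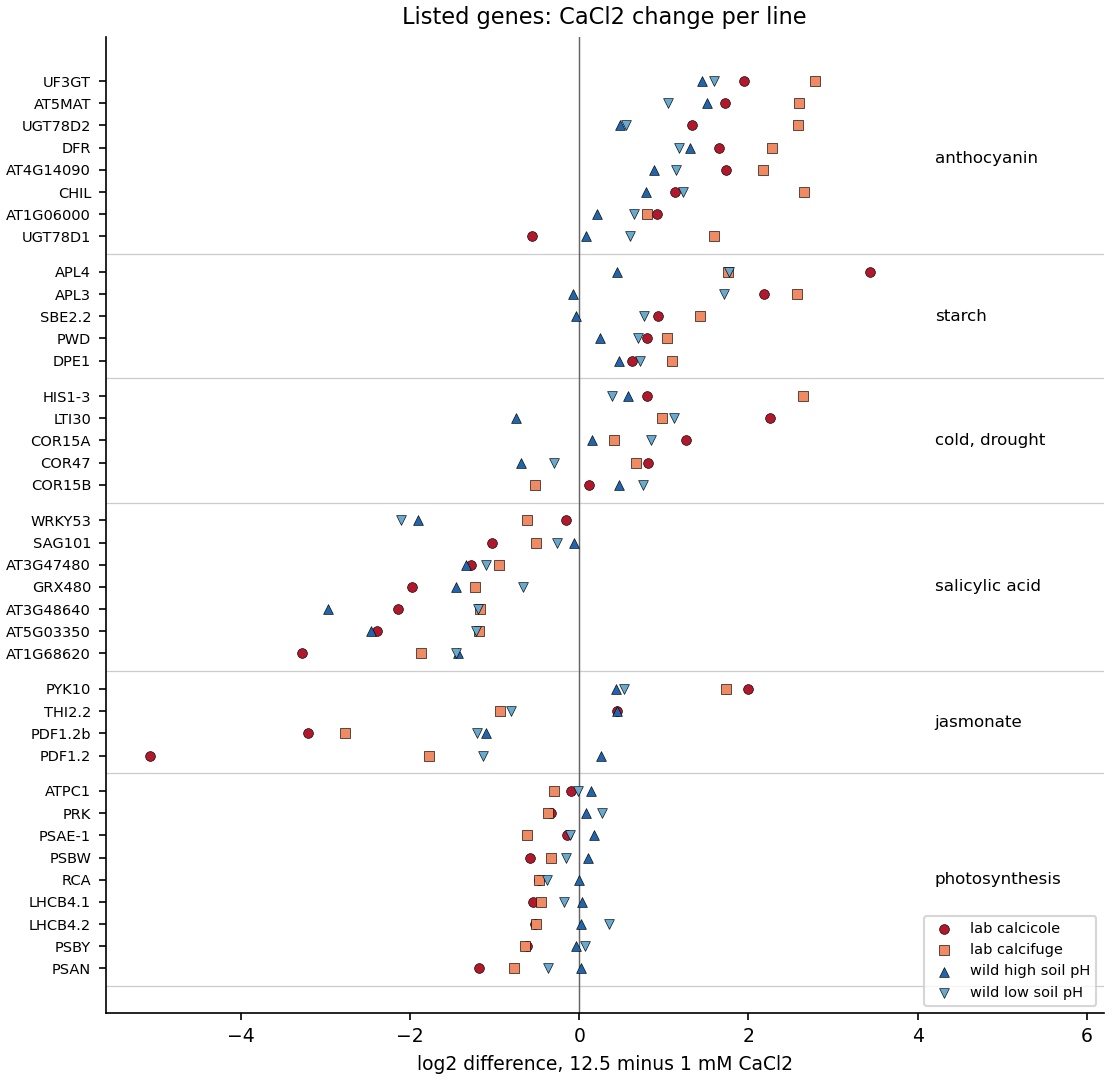
Log2 difference between 12.5 and 1 mM CaCl2 (x axis) of the tested genes of 6 lists in each of the 4 lines (dark red circle lab calcicole, orange square lab calcifuge, blue triangle up high-pH wild line, light blue triangle down low-pH wild line). Anthocyanin and starch genes lie right of 0 in both lab lines except UGT78D1, salicylic acid genes lie left of 0 in all 4 lines, and the nuclear photosynthesis genes lie left of 0 in both lab lines, between -1.19 and -0.09.

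Named genes lower in both lines included defence genes, and the plot of listed genes by line shows all 7 tested salicylic acid genes left of 0. PDF1.2b, a plant defensin, had the lowest p of all probe sets. Its signal was 411 then 42.3 in the calcicole and 1187 then 171 in the calcifuge, a difference of -2.99 ± 0.22, or 7.95-fold lower. It was the 1 probe set (0.00733%) at a limma adjusted p under 0.1, at 0.0783. Within each line the 12.5 mM array was far lower, while across lines the doses overlapped, since the calcifuge at 12.5 mM lay between the calcicole arrays. The probe set is of a type that can bind other transcripts, and PDF1.2 is a near-identical copy, so both genes cannot be fully separated. PDF1.2 read 225 then 4.23 in the calcicole and 1065 then 309 in the calcifuge (-3.43 ± 0.73), with the size in the calcicole set by a dim array.

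PDF1.2 and PDF1.2b are textbook targets of jasmonate and ethylene signalling. Of 27 genes in the jasmonate list 4 were tested. PDF1.2 and PDF1.2b were lower in both lines and PYK10 was higher in both. The thionin THI2.2 changed by 0.45 in the calcicole and -0.94 in the calcifuge. The list therefore had no common direction. PDF1.2b read 12.8 then 4.62 in the high-pH wild line and 99.9 then 41.7 in the low-pH wild line, and PDF1.2 changed by 0.26 and -1.13 there.

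Salicylic acid is the hormone of defence against biotrophic pathogens. Of 31 genes in the salicylic acid list only 7 could be tested. All 7 were lower at 12.5 mM in both lab lines, 4 of them at least 2-fold in both. The shares over all probe sets were 26.1% and 0.652%. The list median was -1.61 against 0.02 over all probe sets. An unadjusted p under 0.05 was found for 6 of 7, against 5.66% of all probe sets in that direction. This list too was set with earlier results of these data known, so its counts are a description. AT1G68620, a carboxylesterase-like gene, read 346 then 33.4 in the calcicole and 117 then 30.0 in the calcifuge (-2.58 ± 0.34, limma adjusted p 0.128). GRX480, a glutaredoxin that binds TGA transcription factors, read 147 then 35.5 in the calcicole and 84.6 then 34.5 in the calcifuge (-1.61 ± 0.30). For both genes the 12.5 mM arrays lay below both 1 mM arrays and near each other.

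AT5G03350, a lectin-like gene, read 1168 then 220 in the calcicole and 2334 then 1027 in the calcifuge (-1.79 ± 0.40). AT3G48640 read 1299 then 293 in the calcicole but only 9.28 then 2.73 in the calcifuge, so its change in the calcifuge rests on dim arrays. AT3G47480, an EF-hand calcium-binding gene, changed by -1.28 and -0.95, the EDS1 partner SAG101 by -1.03 and -0.52, and WRKY53 by -0.16 and -0.62. The calcicole had the larger decrease for 6 of the 7 genes. All 7 were lower in both wild lines too, against 26.9% of all probe sets, and WRKY53 changed there by -1.91 and -2.11.

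The 25 named decreases held 2 berberine bridge-like oxidases, a family several members of which act on oligosaccharides or defence metabolites. AT1G26390 read 325 then 25.9 in the calcicole and 230 then 42.7 in the calcifuge (-2.94 ± 0.37, limma adjusted p 0.11). AT1G30700 read 308 then 55.3 in the calcicole and 301 then 57.7 in the calcifuge, nearly the same values in both lines (-2.38 ± 1.11). Its large SE comes from the wild lines, at 28.3 then 1.69 for high pH and 2.94 then 32.9 for low pH, which enter the shared spread. A list of this family, written after both genes had been seen, had 19 members named on the array, of which 6 were tested. Of these 6, 3 were lower in both lab lines, 1 higher in both and 2 opposite. The shares over all probe sets were 26.1%, 30.6% and 43.3%. The 6 tested members thus had no common direction.

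Further named decreases included genes of auxin and growth. GH3.3, which conjugates auxin to amino acids, read 252 then 10.6 in the calcicole and 95.0 then 30.9 in the calcifuge (-2.91 ± 0.83), while it changed by 1.41 and -1.62 in the wild lines. AT1G22690, of the gibberellin-regulated GASA family, read 240 then 75.9 in the calcicole and 161 then 40.3 in the calcifuge (-1.78 ± 0.22). SKU5, which is needed for directional root growth, read 60.7 then 22.4 in the calcicole and 527 then 199 in the calcifuge (-1.37 ± 0.31). SKU5 shows nearly equal changes, -1.34 and -1.39, at very different levels in the lines.

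EXPA8, a wall-loosening expansin, read 209 then 40.5 in the calcicole and 144 then 64.4 in the calcifuge (-1.71 ± 0.31), while EXPA4 was higher by 0.39 and 0.71 and EXPA15 changed by -0.10 and 0.76. Over the 4 tested wall genes 2 were lower in both, 1 higher in both and 1 opposite, against 26.1%, 30.6% and 43.3% of all probe sets. The dioxygenase AT2G38240 changed by -1.47 and -1.95, and the mutarotase-like AT3G47800 by -1.65 and -1.54. The other named decreases were AT1G11850, AT5G22390, AT5G08240, AT2G18690, AT5G38900, AT1G62760, AT3G06070, AT2G25735, AT4G23820 and AT4G17245, with lab differences from -1.35 for AT2G25735 to -2.38 for AT1G62760. AT5G08240 had larger decreases in the wild lines (-3.30 and -2.85) than in the lab lines (-1.78 and -1.49).

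Plastid-encoded genes formed the largest listed group on the lower side. Chloroplast DNA encodes core subunits of both photosystems, the cytochrome complex, the ATP synthase and the NADH dehydrogenase-like complex, with part of the plastid's own ribosomes and RNA polymerase. All 69 plastid genes named on the array were tested: 57 were lower at 12.5 mM in both lab lines, 12 were opposite and 0 were higher in both. The shares over all probe sets were 26.1%, 43.3% and 30.6%. Their median was -0.93 in the lab lines, with -0.61 in the calcicole and -1.38 in the calcifuge, against 0.19 and 0.20 in the high-pH and low-pH wild lines. For 41 of 69 the unadjusted p was under 0.05, against 5.66% of all probe sets, and none passed the adjusted threshold. Plastid genes are not independent and share arrays, so this count is a description. At least 2-fold decreases were seen for 11 genes in the calcicole, 39 in the calcifuge and 8 in both. Over all probe sets these shares were 4.15%, 3.05% and 0.652%.

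Among photosystem genes, psbB, which encodes the CP47 antenna protein of photosystem II, read 498 then 150 in the calcicole and 353 then 81.3 in the calcifuge (-1.90 ± 0.22, limma adjusted p 0.11). psaA, a core subunit of photosystem I, read 1459 then 385 in the calcicole and 2075 then 679 in the calcifuge (-1.76 ± 0.28). For both genes the 12.5 mM arrays were below both 1 mM arrays. psbA, the D1 protein, read 3563 then 2060 in the calcicole and 3788 then 509 in the calcifuge, a much larger change in the calcifuge. All 7 photosystem I genes, among which the assembly factors ycf3 and ycf4 were counted, were lower in both lines, and so were 11 of 15 photosystem II genes. The exceptions in photosystem II were psbJ, psbL, psbF and psbE, which changed by -0.97 to -0.21 in the calcicole and by 0.00 to 0.44 in the calcifuge. These 4 small genes form 1 operon.

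All 6 ATP synthase genes were lower in both lines. atpI read 242 then 87.3 in the calcicole and 281 then 36.9 in the calcifuge (-2.14 ± 0.35), atpH changed by -1.43 and -2.08, and atpF by -1.27 and -2.54. By contrast atpE changed by only -0.35 and -0.34, and atpB by -0.40 and -0.15. The remaining gene, atpA, lay between, at -0.66 and -1.20. The genes with large changes, atpI, atpH and atpF, lie in another operon than atpB and atpE. The operon of atpI, atpH and atpF also holds atpA and rps2, and rps2 changed by -0.65 and -1.20. The sizes thus did not divide cleanly by operon. Of the NADH dehydrogenase-like genes 8 of 10 were lower in both, and ndhJ and ndhK had the largest calcifuge changes of this complex, -3.06 and -2.87. ndhC, the third gene of their operon, changed by -0.34 and 0.26.

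In the cytochrome group 6 of 7 genes were lower in both, in the ribosomal protein group 11 of 15 and in the transcription and splicing group 4 of 5. The ribosomal group was split in the calcifuge. There rps4, rpl20, rpl14, rpl16 and rps15 changed by -2.77 to -2.18, and the other 10 by -1.29 to 0.08. rbcL, the large subunit of Rubisco, read 738 then 633 in the calcicole and 846 then 133 in the calcifuge. accD, of fatty acid synthesis, read 961 then 625 in the calcicole and 1179 then 129 in the calcifuge, the largest plastid change of the calcifuge at -3.17. Both show how much of the decrease in this group was in the calcifuge: 49 of the 69 genes had the lower value there.

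**Figure D4:**
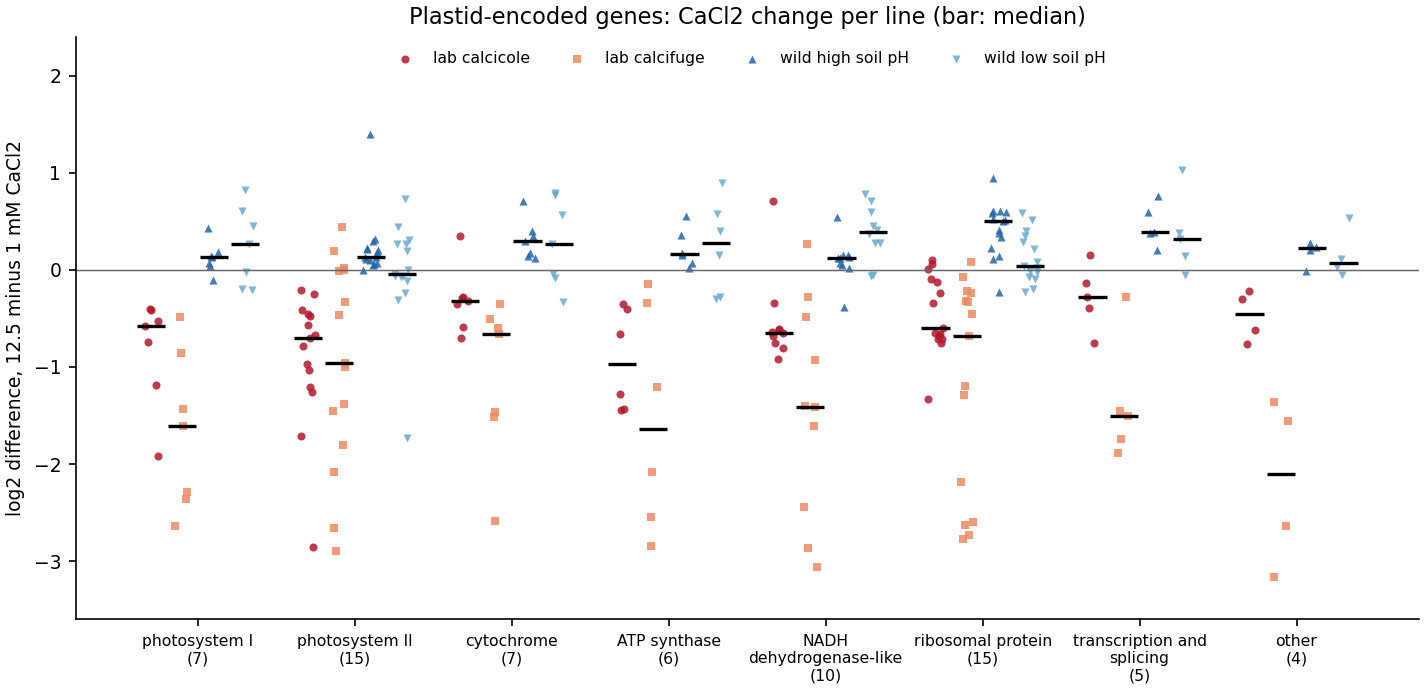
Log2 difference between 12.5 and 1 mM CaCl2 (y axis) of 69 plastid-encoded genes, grouped by function (x axis, with the number of genes), in the 4 lines (dark red lab calcicole, orange lab calcifuge, blue high-pH wild line, light blue low-pH wild line); each symbol is a gene and black bars are medians. In every group the median of both lab lines is below 0, and the wild medians lie between -0.04 and 0.51.

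The plot of plastid genes by line shows the wider spread of the calcifuge. The 25S ribosomal RNA control signal also moved on the calcifuge array at 12.5 mM (126 to 19.8), and its part in the plastid result was not tested. In the calcicole that control was 100.4 then 90.4, and the mean plastid change there was -0.62, against -1.31 in the calcifuge. The cre spike control read 4500 then 2781 in the calcicole and 4468 then 3684 in the calcifuge. It read 3237 then 3314 in the high-pH and 5163 then 3162 in the low-pH wild line, and its part was not tested. With quantile normalization the plastid median was -0.48 in the calcicole and -1.23 in the calcifuge, and 54 of 69 genes were lower in both. The 4 green shoot markers, which are nuclear photosynthesis genes, were also lower (median -0.43, or -0.20 with quantile normalization). The root marker PYK10 was higher (1.87), and the part of these markers in the plastid result was not tested. The GAPDH ratio of 3' to 5' control signal was 1.58 then 1.42 in the calcicole and 2.66 then 2.62 in the calcifuge.

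Nuclear genes of photosynthesis showed a smaller shift in the same direction. Of 43 listed genes 9 were tested. All 9 were lower in both lab lines, against 26.1% of all probe sets, with a median of -0.48. An unadjusted p under 0.05 was found for 2 of them, against 5.66% of all probe sets in that direction. PSAN, a photosystem I subunit, read 1770 then 776 in the calcicole and 2118 then 1243 in the calcifuge (-0.98 ± 0.23). RCA, which activates Rubisco, read 4822 then 3463 in the calcicole and 4906 then 3534 in the calcifuge (-0.48 ± 0.22). LHCB4.1 and LHCB4.2, minor antenna proteins, changed by -0.55 and -0.52 in the calcicole and by -0.45 and -0.51 in the calcifuge. For these bright probe sets the scaling mattered: with quantile normalization the list median was -0.21 and 7 of 9 were lower in both. With each array centred on its median it was -0.48, and 9 of 9 were lower in both.

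Calcium signalling genes were few among those tested. Of 40 listed genes 5 were tested, of which 3 were lower in both lines and 2 opposite, with a median of -0.52. CML42, a calmodulin-like protein of trichomes and herbivore defence, read 169 then 74.9 in the calcicole and 190 then 136 in the calcifuge (-0.81 ± 0.33). The chaperone calreticulin CRT1b changed by -0.69 and -0.34, the glutamate receptor-like channel GLR2.7 by -0.84 and -0.40, the thylakoid calcium sensor CaS by -0.38 and 0.11, and CML38 by 0.65 and -0.85. Calcium exchangers, pumps and other listed transporters were not among the probe sets tested by name. Among gene families, 11 of 20 tested UGT glycosyltransferases were higher in both lines and 1 was lower (median 0.24). Of 5 WRKY factors 4 were lower in both, of 8 glutathione transferases 4 were higher in both, and of 11 CYP monooxygenases 2 were higher in both, 2 lower in both and 7 opposite. The shares over all probe sets were 30.6% higher in both, 26.1% lower in both and 43.3% opposite, so such small family counts are not read as results about the families.

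The wild arrays entered the filter on dim probe sets, which used the mean of all 8 arrays. The wild changes were not used to choose the shared lab changes, so they were set beside them. Of the 106 probe sets at least 2-fold higher in both lab lines, 57 (53.8%) were higher in both wild lines and 7 (6.6%) lower in both, against 26.4% and 26.9% of all tested probe sets. Of the 89 that were lower, 52 (58.4%) were lower in both wild lines and 7 (7.87%) higher in both. Of these 7, 6 were plastid-encoded, since among the 81 that were not plastid-encoded 52 (64.2%) were lower and 1 (1.23%) higher in both wild lines. At the 2-fold size, 10 of the 106 and 16 of the 89 had the same change in both wild lines, against 0.147% of all probe sets higher and 1.11% lower. Medians in the high-pH and low-pH wild lines were 0.15 and 0.96 for the higher set, and -0.61 and -0.77 for the lower set, so the higher set moved less in the high-pH wild line.

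Where the lab response differed from the wild response was then tested directly. None of 13647 passed in limma (0 probe sets, 0%), and the unadjusted p was under 0.05 for 687 (5.03%). With the low-pH wild line left out, 1 passed. The named genes with the smallest p on the lower side were psbB (-2.10 ± 0.31), atpH (-2.12 ± 0.36), atpI (-2.87 ± 0.49), PDF1.2b (-1.83 ± 0.32), rpoB (-2.02 ± 0.37) and psaA (-2.12 ± 0.40), each with a limma adjusted p of 0.988. Of these 6 genes 5 are plastid-encoded. Over the plastid list, 38 of 69 had an unadjusted p under 0.05 on the lower side, against 2.4% of all probe sets. These genes are not independent and share arrays, so the count is a description. The actin control ratio was 10.4 to 16.9 on the lab arrays and 1.53 to 2.67 on the wild arrays. The 25S control read 19.8 on the lab calcifuge array at 12.5 mM. The part of both controls in this difference was not tested. In both wild lines 40 of 69 were higher, against 26.4% of all probe sets.

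On the higher side of lab minus wild the smallest p belonged to AT5G09480, AT1G72900, AT4G38080, AT5G23460, SAL2 and AT2G37890. In that direction 2.63% of all probe sets had an unadjusted p under 0.05. AT5G09480 was higher in the lab lines by 1.38 ± 0.26, and it read 71.4 then 32.2 in the high-pH wild line and 25.4 then 16.4 in the low-pH wild line (lab minus wild 2.21 ± 0.36). Every lab line was thus higher and every wild line lower at 12.5 mM. SAL2, a homologue of the phosphatase SAL1, changed by -0.28 and 0.19 in the lab lines and by -1.82 and -1.73 in the wild lines. For SAL2 and AT1G72900 the difference therefore lay in a wild decrease. AT2G37890, of the mitochondrial carrier family, changed by 1.43 and 1.17 in the lab lines and by -0.51 and -0.23 in the wild lines.

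The lab lines did not share the response of hypoxia genes, which plants switch on when oxygen is short. Of 28 listed genes 12 were tested, and 10 of these changed in opposite directions, against 43.3% of all probe sets. The list median was 2.60 in the calcicole and -0.88 in the calcifuge. AT5G10040 read 10.2 then 573 in the calcicole and 322 then 169 in the calcifuge. AT1G33055 read 6.10 then 270 in the calcicole and 414 then 150 in the calcifuge, and AT5G66985 read 14.5 then 420 in the calcicole and 322 then 249 in the calcifuge. For these 3 genes the calcicole array at 1 mM was the lowest of the 4 and the other 3 arrays were within 4-fold of each other. The differences between lines were 6.43 ± 1.04, 6.43 ± 1.14 and 5.00 ± 0.78, with limma adjusted p of 0.142, 0.149 and 0.131.

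**Figure D5:**
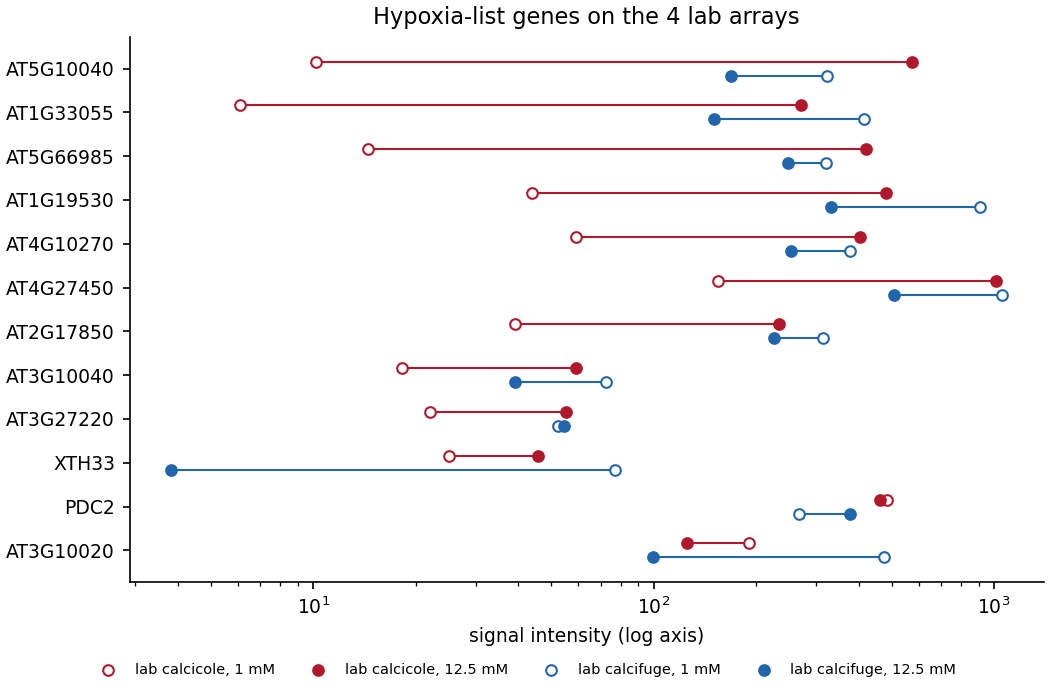
Signal intensity (log axis) of the 12 tested hypoxia-list genes on the 4 lab arrays; open circles are 1 mM and filled circles 12.5 mM CaCl2, red is the lab calcicole and blue the lab calcifuge. For the genes at the top the calcicole array at 1 mM is lowest, at 10.2 for AT5G10040 and 6.10 for AT1G33055.

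As the plot of hypoxia genes shows, AT3G10020 was the member lower in both lines (-0.59 and -2.23), AT3G27220 was the member higher in both (1.24 and 0.06, and opposite with either other scaling), and PDC2, a pyruvate decarboxylase of fermentation, changed by -0.07 and 0.50. AT1G19530 changed by 3.38 in the calcicole and -1.45 in the calcifuge, and by 3.48 and -0.61 in the high-pH and low-pH wild lines, where the list median was 1.30 and -0.51. Named genes of opposite direction outside this list included EXLA1, an expansin-like gene at 22.7 then 192 in the calcicole and 330 then 41.9 in the calcifuge. AT3G07350, AT1G50040, AT4G39675 and AT1G54020 had the same pattern. GSTU25, a glutathione transferase, had the reverse pattern, at 393 then 33.0 in the calcicole and 24.0 then 91.4 in the calcifuge. GH9C2, an endoglucanase, read 391 then 188 in the calcicole and 133 then 380 in the calcifuge, and AT1G55760, AT4G27300, AT1G20823 and AT4G27652 ran the same way. STZ, a zinc finger factor of rapid stress responses, changed by -2.32 in the calcicole and 0.16 in the calcifuge. The test of calcicole minus calcifuge response called 1 probe set (0.00733%), and 968 (7.09%) had an unadjusted p under 0.05.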

How the data were processed

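Total RNA of whole plants was hybridised to 8 Affymetrix ATH1 arrays. The deposited values are linear signal intensities, 1 for each probe set. The authors used MAS5, per the submitters' processing notes, and its version and settings are not given in the sources used here. The mean without the lowest and highest 2% was near 100 on each array, so arrays were already scaled. The 22810 probe sets include 64 controls, which were dropped. Before log2 was taken, 2.51, the 10th percentile, was added as pseudocount, and the dimmest 40% by mean were dropped, which left 13647, of which 7289 name 1 gene (7227 genes). The platform table names 1 gene for 13513 probe sets, several for 503 and none for 8730, and 13436 matched the TAIR10.1 annotation, used for names only. Mitochondrial genes matched none.

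Models were fitted in limma 3.58.1 under R 4.3.3, with Benjamini-Hochberg adjustment over all tested probe sets. The main model has 4 line terms, a lab dose term and a wild dose term (2 residual degrees of freedom). The line difference in response was fitted with 1 residual degree of freedom, taken from the wild lines. Errors are standard errors. The number of arrays limits the precision. The calculation was also run on simulated data with independent noise and the same added change in both lab lines. That setting does not cover lines that respond differently. Figures used matplotlib 3.10.9.

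Named genes are, among probe sets naming 1 gene (the brightest per gene), the 25 each way with the largest smaller-of-both-lines change, the 6 of each opposite pattern, the 6 each way with the smallest lab minus wild p, and list members. Of 391 genes in 20 lists, 61 were tested; lists of iron excess, plastid transcription machinery, phosphate starvation, ion transport and flower and seed markers had none tested. GI was the tested clock gene (0.06 in the calcicole and 0.41 in the calcifuge). Of 5 CML genes 2 were lower in both lines, and of 7 expansins 2 were higher and 2 lower in both. Over all probe sets 30.6% were higher and 26.1% lower in both. Members and lists were chosen with earlier results of these data known. Alternatives covered scaling, pseudocount, filter, samples, block, variance model, thresholds, shared-type probe sets and leaving out lines or arrays.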

Additional observations from a re-analysis of the deposited data

Results flagged for a closer look

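A single result differed between the lab lines past the threshold. Probe set 265561_s_at, which has no gene name here, read 12.5 at 1 mM and 399 at 12.5 mM CaCl2 for the lab calcicole but 175 at 1 mM and 46.8 at 12.5 mM for the lab calcifuge. Its response differed by 6.59 ± 0.61 (calcicole minus calcifuge, limma adjusted p 0.0405), and it changed by 0.76 and 1.85 in the high-pH and low-pH wild lines. The test rests on 1 residual degree of freedom, from the wild lines. The limma adjusted p was 0.0105 with a pseudocount of 16 and 0.0127 with a variance trend, and between 0.0629 and 0.76 with robust variances, a pseudocount of 1, median centring, quantile normalization or no filter. The suffix marks a probe set that can bind several transcripts, and the cause of the difference was not tested.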

How the results depend on the processing

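With 2 lines and 1 array per line and dose, small changes cannot be told from array noise. The count of probe sets past the threshold for the lab response was 0, and became 1 with a pseudocount of 16, with the lowest 60% left out, with a variance trend or at an adjusted p of 0.1, and 8 with the 4 lab arrays alone. Leaving out a line or lab array gave 8 to 89; leaving out a lab array removes its line from the response. Lab minus wild gave 0 to 1. Calcicole minus calcifuge called 1, and 0 with median centring, quantile normalization, a pseudocount of 1, no filter, the lowest 60% left out, no line block, robust variances or without shared-type probe sets, 3 with a pseudocount of 16, 14 with a trend and 2 at an adjusted p of 0.1. It could not be fitted with any line left out.

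The counts of same-direction changes (106 higher and 89 lower) were 299 and 267 with no filter, 70 and 58 with the lowest 60% left out, 392 and 368 at 1.5-fold and 29 and 21 at 3-fold. Opposite changes numbered 292, 17, 250 and 5 there, and 17 with a pseudocount of 16. The plastid mean was -1.31 to -0.62 and the anthocyanin mean 1.23 to 2.18 with a line or lab array left out, and neither changed sign under any setting run. Among single genes only AT4G39675 reversed, at -0.032 for calcicole minus calcifuge with no line block. The causes were not tested. No paired analysis was possible because each group has 1 array with the same replicate number, beyond the line block of the main fit, which pairs both doses of a line.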
